A study of Mus musculus with 3 samples.

Results

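Ribosomal proteins of the cytosol form the protein part of the ribosome, together with ribosomal RNA. Their genes were taken from the series by symbol: Rpl or Rps followed by a digit, or Rplp0, Rplp1, Rplp2 and Rpsa, without pseudogene names (-ps), the Rps6k kinases and Rps27a, and with a unique molecular identifier (UMI) in at least 10 kept cells. Of 85 matching symbols, 82 qualified (49 of the large subunit series and 33 of the small subunit series), among 13058 genes detected in as many cells. The other 3 were Rpl10l with 0 cells and Rpl3l and Rpl39l with 8 cells each. All 82 passed the filter on low counts in each comparison described here.

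The cells were Lin- Sca1+ ckit+ (LSK) cells sorted from mouse bone marrow, the fraction that holds blood stem cells and their early multipotent progeny. The groups were 2 Helios-deficient mice, which lack the zinc finger factor encoded by Ikzf2, and 2 wild-type mice; strain, age and the deleted part of the gene are not given in the sources used here. Each mouse carried its own hashtag antibody, 2500 cells per mouse were loaded into 1 droplet run, and the cells also carried antibody tags for CD41, CD48, CD150 and Flt3. The mouse is the replicate here. Genotype p-values rest on the spread between mice, and state p-values on the spread of differences within mice. The edgeR p-values also borrow variance estimates from other genes, so they can fall far below what an exact test over these mice allows. The numbers of kept cells were 557 and 824 in Helios-deficient mice, with 1175 and 914 in wild-type mice, with median depths of 8670, 8461, 7599 and 7627 UMIs per cell in that order. Mouse totals ranged from 5729987 to 10317599 UMIs.

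A ribosome is built from a small subunit, which reads the messenger RNA, and a large subunit, which joins amino acids. Its protein genes are among the most abundant messages of a growing cell, and many of their transcripts begin with a tract of pyrimidines (C and T), through which the mTOR pathway controls how much of the message is translated. Blood stem cells are known for a low rate of protein synthesis. Mutations of single ribosomal protein genes cause Diamond-Blackfan anemia in humans, and the proteins of Rpl5 and Rpl11 join 5S ribosomal RNA in a particle that can bind Mdm2 and so raise p53.

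The start regions of 4 members are shown because Rps27l and Rps27rt had the widest ranges between cell states, with Rps27 beside them as their relative, and because Rpl28 has a typical pyrimidine tract. Each runs from 10 bases before to 20 bases from the annotated start on (RefSeq, GRCm38.p6, which is mm10), on the transcript's strand. The longest run of C and T is in capitals, and the first one where runs are equally long. In Rps27rt the run that begins at the annotated start also has 6 bases and is not in capitals.
Rps27 (chr3:90213629-90213658, minus strand): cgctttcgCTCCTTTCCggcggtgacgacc
Rps27rt (chr9:114982720-114982749, minus strand): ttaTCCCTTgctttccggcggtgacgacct
Rps27l (chr9:66946076-66946105, plus strand): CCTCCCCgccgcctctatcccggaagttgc
Rpl28 (chr7:4792955-4792984, plus strand): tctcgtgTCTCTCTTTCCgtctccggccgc
The first 50 transcribed bases of Rps27 and of Rps27rt share an unbroken stretch of 38 bases, whereas the longest stretch shared in the 250 bases before the start is 10 bases. Rps27 and Rps27l share at most 5 bases in a row in those first 50. Reads of Rps27 and Rps27rt may therefore be hard to tell apart, and both counts are uncertain; the transcript ends, where the reads of a 3 prime library lie, were not compared. Of 82 members, 63 have a start region in this table. A run of at least 8 C or T bases within 50 bases of the start was present in 51 of the 63 (81.0%), against 39.3% of 27025 genes in the table and 37.2% of those detected here. The letters CCGGAAG, on either strand within 250 bases before and 50 after the start, were present in 25 of the 63 (39.7%), against 9.93% of all genes in the table and 20.3% of those detected here.

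States were defined without any ribosomal protein gene: by antibody tags, by clusters, and by a cell cycle score. HSC-like cells (652) carried 9 of 12 stem cell markers, but Igkc and Cd74 stood among their 10 leading genes. In that cluster the 6 B cell markers summed to 95.7 and 6558 CPM (counts scaled to 1000000 UMIs) in Helios-deficient mice, against 40556 and 133 CPM in wild-type mice, so wild-type mouse 1 stood apart there. All 6 were detected. Myeloid-primed-like cells (520) were led by Elane and Ctsg together with replication genes such as Rrm2, and megakaryocyte-primed-like cells (180) by Pf4 and Itga2b. Lymphoid-primed-like cells (953) join cluster 1 and cluster 4. Cluster 1 (572 cells, median 6463 UMIs) had Wfdc17 among its leading genes, and cluster 4 (381 cells, median 10404 UMIs) had Dntt and Il7r. The cell states differ in depth, with median UMIs of 6076 per HSC-like cell and 13016 per myeloid-primed-like cell. The level of Ikzf2 was 73.6 and 82.7 CPM in Helios-deficient mice, against 70.6 and 67.7 CPM in wild-type mice; with the deleted part not stated, this 3 prime count checks neither the genotype nor the hashtags.

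Ribosomal protein genes made up 31.2% and 31.7% of all UMIs in the Helios-deficient mice, against 31.5% and 32.1% in the wild-type mice. The ranges of the genotypes overlap. The means were 31.4 ± 0.37% and 31.8 ± 0.42% (SD, n = 2 mice each), a difference of -0.34 percentage points (exact permutation test over mice, two-sided p = 0.667, where 0.333 is the smallest the 4 mice allow). With each cluster sampled to equal cells in all mice the sign turned, at 0.015 percentage points. Among the members with the most UMIs were Rpl32, Rpl13, Rps19 and Rps18; UMIs were counted at transcript ends and not divided by length. Rpl32 had 8341 and 8700.2 CPM in the Helios-deficient mice, against 8479.8 and 8864 CPM in the wild-type mice. At the other end stood Rps19bp1, a binding partner of Rps19 rather than a ribosomal subunit, with 79.4 and 68.5 CPM in the Helios-deficient mice, against 73.0 and 70.5 CPM in the wild-type mice, and before it Rpl7l1, Rps27rt, Rpl36al and Rps27l, which are copies or paralogs of Rpl7, Rps27, Rpl36a and Rps27.

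The share of ribosomal protein RNA was lower in cells called S or G2M than in cells called G1 although the number of molecules per cell was higher. In G1 cells it was 32.6% and 33.1% in Helios-deficient mice, with 32.5% and 33.3% in wild-type mice. In S cells it was 30.6% and 31.5% in Helios-deficient mice, with 30.9% and 31.5% in wild-type mice, and in G2M cells 30.1% and 29.8% in Helios-deficient mice, with 30.04% and 30.6% in wild-type mice. No S or G2M value reached the lowest G1 value. S cells differed from G1 cells by -1.75 ± 0.16 percentage points and G2M cells by -2.72 ± 0.41 percentage points (mean ± SD of within-mouse differences, n = 4). Each was lower in 4 of 4 mice, and the exact sign-flip permutation test gave a two-sided p of 0.125, the smallest 4 mice allow. Ribosomal protein UMIs per cell in G1 were 2319.9 and 2382 in Helios-deficient mice, with 2158 and 2188 in wild-type mice. They were 3886 and 3964 in Helios-deficient mice, with 3477 and 3698 in wild-type mice in S, and 4695 and 4532 in Helios-deficient mice, with 4266 and 4816 in wild-type mice in G2M. They stood 1.66 ± 0.03 times as high in S as in G1, while all UMIs per cell stood 1.75 ± 0.04 times as high. In G2M cells these ratios to G1 were 2.03 ± 0.13 and 2.21 ± 0.12. With each cell thinned to 5000 UMIs the differences in share were -1.80 and -3.03 percentage points.

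Among the classes, the share was 29.3% and 30% in Helios-deficient mice, with 29.7% and 29.9% in wild-type mice in myeloid-primed-like cells, and 30.8% and 31.4% in Helios-deficient mice, with 30.6% and 30.8% in wild-type mice in megakaryocyte-primed-like cells. It was 32.0% and 33.0% in Helios-deficient mice, with 32.9% and 33.1% in wild-type mice in lymphoid-primed-like cells, and 32.6% and 32.9% in Helios-deficient mice, with 31.5% and 33.5% in wild-type mice in HSC-like cells. Myeloid-primed-like cells differed from HSC-like cells by -2.89 ± 0.78 percentage points, and megakaryocyte-primed-like cells by -1.74 ± 0.77 percentage points, lower in 4 of 4 mice each (exact sign-flip test, two-sided p = 0.125). Lymphoid-primed-like cells differed from HSC-like cells by 0.15 ± 0.93 percentage points, less than the spread between mice. That value depended on the clusters, at -1.62 ± 0.63 percentage points (lower in 4 of 4 mice) with a doubled resolution and -0.32 ± 0.33 percentage points (lower in 3 of 4 mice) with thinned cells. The megakaryocyte-primed-like value was -3.99 ± 0.94 percentage points (lower in 4 of 4 mice) at the doubled resolution. The low HSC-like value of wild-type mouse 1 stood beside the highest sum of B cell markers. Helios-deficient mouse 2, with 6558 CPM of these markers, had 32.9%. Without the finer clusters led by B cell or hemoglobin genes, the HSC-like shares were 32.2% and 32.7% in Helios-deficient mice, with 32.6% and 33.0% in wild-type mice. With thinned cells and those clusters kept, they were 32.8% and 33.5% in Helios-deficient mice, with 33.1% and 33.8% in wild-type mice. Wild-type mouse 1 lay between the other mice in both settings. The part of B cell RNA in its low value was not tested. Erythroid-primed-like cells, 6 to 15 per mouse, had 34.4% and 32.3% in Helios-deficient mice, with 34.1% and 34.2% in wild-type mice. In the gates drawn from antibody tags alone, CD48-high CD150-low cells, a progenitor phenotype, had 30.8% and 31.7% in Helios-deficient mice, with 31.5% and 32.0% in wild-type mice, against 31.2% and 32.5% in Helios-deficient mice, with 32.6% and 33.0% in wild-type mice in CD48-low CD150-high cells, a stem cell phenotype. The difference was -0.82 ± 0.35 percentage points, lower in 4 of 4 mice (exact sign-flip test, two-sided p = 0.125), with median depths of 11385 and 6969 UMIs per cell.

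**Figure D1:**
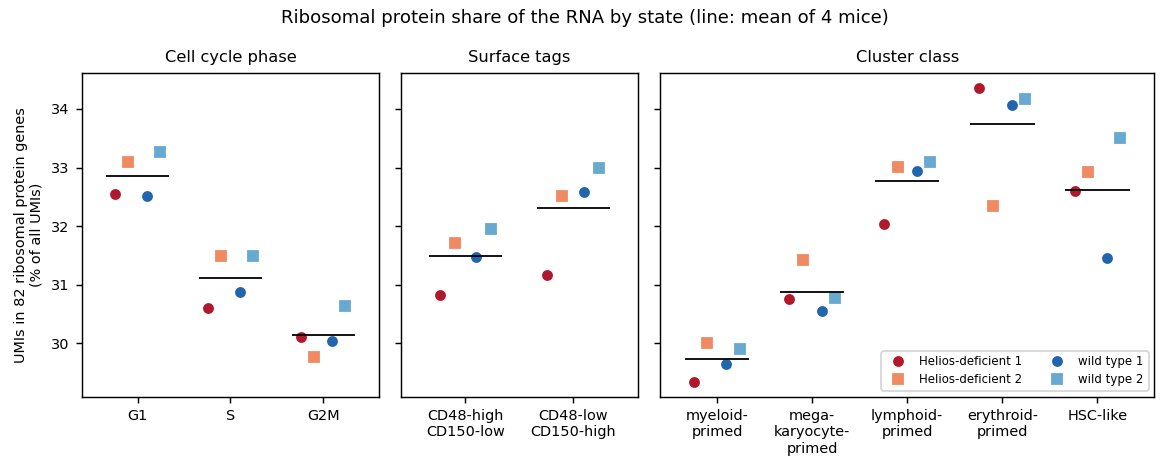
Share of all UMIs that fell in the 82 ribosomal protein genes (vertical axis, percent, not starting at 0) for each mouse (points) in cell cycle phases, surface tag gates and cluster classes, with the mean of the 4 mice as a line. The S and G2M points lie below all G1 points, and the myeloid-primed-like points, from 29.3% to 30%, are the lowest of the classes drawn.

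Within the ribosomal protein RNA, single members took different shares from state to state. As a share of ribosomal protein UMIs, the highest over the lowest of 10 clusters and classes had a median of 1.18 across the 82 genes, and 46 genes stayed below 1.2. For 4 genes the ratio exceeded 1.5: Rps27l (2.10), Rps27rt (1.78), Rps19bp1 (1.59) and Rps2 (1.58). Rps27l and Rps2 had their lowest value in HSC-like cells and Rps27rt its highest. The opposite extreme of each of these lay in erythroid-primed-like cells, a class of 42 cells with 6 to 15 per mouse. Rps19bp1, the member with the lowest CPM, was lowest in cluster 8 and highest in megakaryocyte-primed-like cells.

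Rps27l and Rps27rt, which had the widest ranges over the clusters, are given with Rps27 (ratio 1.45, from erythroid-primed-like to HSC-like cells). Rps27 encodes a zinc-binding protein of the small subunit, Rps27l a near-identical paralog known as a p53 target, and Rps27rt is named as a retrotransposed copy of Rps27. Rps27 stood at 3757 and 3963 CPM in the myeloid-primed-like cells of the Helios-deficient mice and 3831 and 3895 CPM in those of the wild-type mice, against 5881, 5936, 5419.5 and 6101 CPM in the HSC-like cells of the same mice in that order. Every myeloid-primed-like value was below every HSC-like value, a log2 change of -0.53 (SE 0.02, edgeR adjusted p = 6.2e-33). Rps27l stood at 849 and 805 CPM in the myeloid-primed-like cells of the Helios-deficient mice and 722 and 827 CPM in those of the wild-type mice, against 547, 493, 464 and 411 CPM in the HSC-like cells of the same mice in that order. Here all myeloid-primed-like values were the higher ones, with a log2 change of 0.81 (SE 0.05, edgeR adjusted p = 3.8e-20). Rps27rt, with 325 and 373 CPM in the myeloid-primed-like cells of the Helios-deficient mice and 327 and 334 CPM in those of the wild-type mice, against 627, 599, 585 and 685 CPM in the HSC-like cells of the same mice in that order, followed Rps27 in direction, at -0.81 (SE 0.05, edgeR adjusted p = 4.1e-23).

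Rps27 and Rps27l also moved in opposite directions between phases. Rps27 had 4204 and 4391 CPM in the S cells of the Helios-deficient mice and 4267 and 4399 CPM in those of the wild-type mice, against 5493, 5592, 5469.9 and 5716 CPM in the G1 cells of the same mice in that order. The phases did not overlap, and the log2 fold change was -0.28 (SE 0.01, edgeR adjusted p = 1.0e-38). Rps27l had 796 and 779 CPM in the S cells of the Helios-deficient mice and 697 and 762 CPM in those of the wild-type mice, against 596, 551, 507 and 537 CPM in the G1 cells of the same mice in that order. All S values lay above all G1 values, at 0.56 (SE 0.03, edgeR adjusted p = 1.2e-37). In G2M over G1 the log2 fold changes were -0.42 for Rps27, -0.57 for Rps27rt and 0.47 for Rps27l, each past the threshold. The gates, which use no RNA, gave -0.21 (SE 0.03, edgeR adjusted p = 5.2e-07) for Rps27 and 0.36 (SE 0.05, edgeR adjusted p = 1.9e-06) for Rps27l in CD48-high CD150-low over CD48-low CD150-high cells. In megakaryocyte-primed-like over HSC-like cells the values were -0.52 and 0.65, and in lymphoid-primed-like over HSC-like cells -0.18 and 0.48, all past the threshold. Fold changes carry TMM scaling and can differ from the ratio of CPM. These contrasts share cells, and the class contrasts share the HSC-like cells, so they are not independent of each other.

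**Figure D2:**
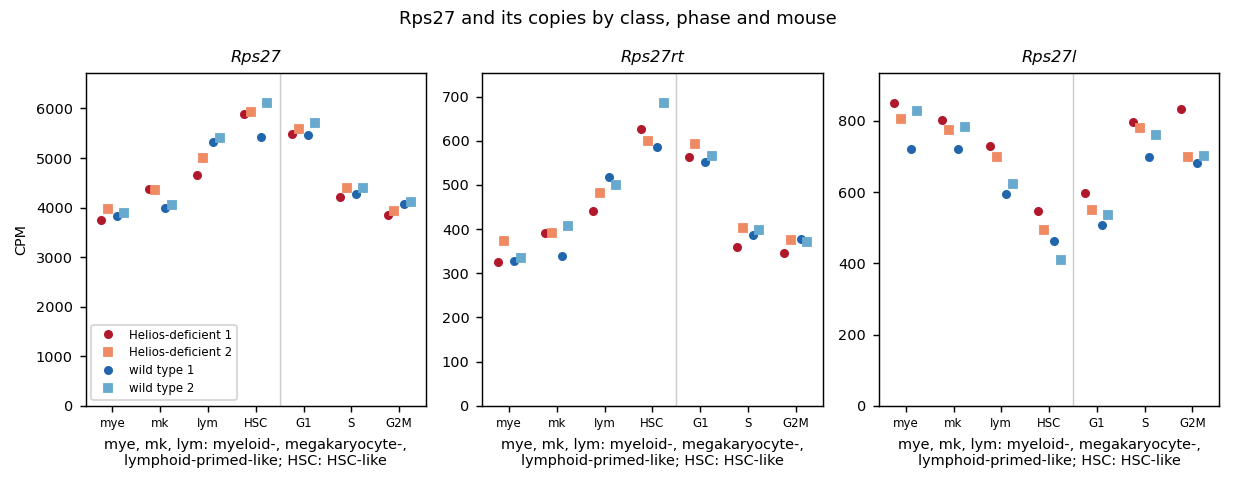
CPM (vertical axes, from 0) of Rps27, Rps27rt and Rps27l in each mouse, by class (left of the grey line) and by phase (right of it). Averaged over mice, Rps27 and Rps27rt are highest in HSC-like cells among the classes and in G1 among the phases, and Rps27l is lowest there.

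How many members were called higher or lower depended on the scaling. An edgeR adjusted p below 0.05 counted as a call. In CD48-high CD150-low over CD48-low CD150-high cells, 15 of 82 members were higher and 14 lower, against 11.6% and 11.4% of all tested genes. The split was 15 higher and 32 lower with library totals and 7 higher and 32 lower with totals of all other genes. It was 7 higher and 10 lower without Helios-deficient mouse 2, and 10 higher and 9 lower without wild-type mouse 1. In lymphoid-primed-like over HSC-like cells, 29 were higher and 10 lower (all genes, 15.2% and 14.3%); with clusters at a doubled resolution the split turned to 6 higher and 29 lower, and against the member total it was 27 higher and 18 lower. In myeloid-primed-like over HSC-like cells, 23 were higher and 32 lower (all genes, 26.4% and 25.4%), or 13 higher and 47 lower with library totals, 9 higher and 56 lower against the other genes and 39 higher and 25 lower against the member total. In megakaryocyte-primed-like over HSC-like cells, 13 were higher and 45 lower (all genes, 21.1% and 21.1%), or 16 higher and 37 lower with library totals and 34 higher and 21 lower when each was read against the member total. Without the finer clusters led by B cell or hemoglobin genes the splits were 32 higher and 7 lower in lymphoid-primed-like, 21 higher and 33 lower in myeloid-primed-like and 11 higher and 47 lower in megakaryocyte-primed-like over HSC-like cells.

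In S over G1 cells, 34 members were higher and 20 lower (all genes, 26.6% and 25.8%), or 17 higher and 49 lower with library totals and 12 higher and 59 lower against the other genes. In G2M over G1 cells, 16 were higher and 35 lower (all genes, 21.1% and 20.8%), or 11 higher and 54 lower with library totals and 5 higher and 62 lower against the other genes, and 29 higher and 24 lower against the member total. Scaling by the other genes moved the median of all genes by -0.12 in S, -0.11 in G2M and -0.12 in myeloid-primed-like cells on the log2 scale. The member total as scale moved it by 0.12 in megakaryocyte-primed-like cells. Median log2 fold changes of the members were -0.02 in the gates, 0.02, -0.02 and -0.11 in lymphoid-, myeloid- and megakaryocyte-primed-like cells, 0.03 in S and -0.05 in G2M cells. The medians of all tested genes were -0.01, -0.01, -0.03, -0.03, -0.03 and -0.03 in the same order. Under all 4 scalings, calls with the same sign held for 12 higher and 20 lower members in S, 5 and 24 in G2M, 9 and 25 in myeloid-primed-like, 10 and 21 in megakaryocyte-primed-like, 19 and 8 in lymphoid-primed-like cells, and 7 and 14 in the gates. The genes named next are given with the main scaling.

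Small subunit members went both ways. Rps2, whose protein lies near the site where messenger RNA enters, had 4467 and 4623 CPM in the S cells of the Helios-deficient mice and 4512 and 4545 CPM in those of the wild-type mice, against 4055, 4142, 4046 and 4249 CPM in the G1 cells of the same mice in that order. All S values lay above all G1 values, at 0.23 (SE 0.02, edgeR adjusted p = 3.1e-29), and myeloid-primed-like over HSC-like cells gave 0.33 (SE 0.03, edgeR adjusted p = 7.0e-20). Rpsa, the gene of the laminin receptor protein of the small subunit, changed by 0.25 (SE 0.02, edgeR adjusted p = 7.5e-29) in S cells and by 0.21 (SE 0.03, edgeR adjusted p = 3.3e-06) in CD48-high CD150-low cells, so both genes were higher in the gates as well, where Rps2 changed by 0.18. Rps14, which is lost with part of a chromosome arm in a human myelodysplastic syndrome, had 6596 and 6706 CPM in the S cells of the Helios-deficient mice and 6762 and 6884 CPM in those of the wild-type mice, against 8079, 8112, 8132 and 8364 CPM in the G1 cells of the same mice in that order. It was lower in each S value than in any G1 value, at -0.19 (SE 0.01, edgeR adjusted p = 4.4e-29). Against HSC-like cells Rps14 fell by 0.41 on the log2 scale in myeloid-primed-like cells and by 0.43 in megakaryocyte-primed-like cells. Rps9, whose protein also lies at the entry site, fell by 0.20 in S, 0.33 in G2M and 0.45 in megakaryocyte-primed-like cells, but its change in the gates, 0.02 (SE 0.03, edgeR adjusted p = 0.76), did not pass.

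Large subunit members that rose included Rpl28, with 2711 and 2879 CPM in the S cells of the Helios-deficient mice and 2753 and 2782 CPM in those of the wild-type mice, against 2516, 2635, 2435 and 2475 CPM in the G1 cells of the same mice in that order. Its S values were all above its G1 values, at 0.24 (SE 0.02, edgeR adjusted p = 7.6e-25). Rpl41, the gene of a very short basic peptide, rose by 0.20 (SE 0.01, edgeR adjusted p = 2.7e-29) in S cells and by 0.23 (SE 0.02, edgeR adjusted p = 4.7e-11) in G2M cells. Rpl4, whose protein lines the tunnel through which the new chain leaves, rose by 0.23 (SE 0.03, edgeR adjusted p = 4.1e-08) in lymphoid-primed-like cells and by 0.16 (SE 0.03, edgeR adjusted p = 1.1e-04) in CD48-high CD150-low cells; the first call ended with clusters at a doubled resolution. Rpl39, the gene of another tunnel protein, on the X chromosome, rose by 0.22 (SE 0.03, edgeR adjusted p = 2.6e-08) in lymphoid-primed-like cells. Among members that fell, Rpl21 had 3831 and 3814 CPM in the CD48-high CD150-low cells of the Helios-deficient mice and 3764 and 3861 CPM in those of the wild-type mice, against 4641, 4926, 4873 and 4941 CPM in the CD48-low CD150-high cells of the same mice in that order. The gates did not overlap, at -0.32 (SE 0.03, edgeR adjusted p = 2.9e-11), whereas its change in S cells, -0.0046 (SE 0.02, edgeR adjusted p = 0.83), did not pass. Rpl37a, the gene of a zinc-binding protein, fell by 0.19 in the gates, 0.18 in lymphoid-primed-like and 0.26 in myeloid-primed-like cells. Rpl17 fell by 0.32 in myeloid-primed-like cells. Rpl23a, at the mouth of the tunnel, fell by 0.34 and Rpl3, near the peptidyl transferase center, by 0.28 in megakaryocyte-primed-like cells.

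Paralogs were read beside their partners, and the difference within a pair was not tested. Rpl22 is dispensable for most ribosomes but needed for early T cell development in mice, and Rpl22l1 is its paralog. In lymphoid-primed-like over HSC-like cells Rpl22 rose by 0.25 (SE 0.04, edgeR adjusted p = 6.3e-06) while Rpl22l1 changed by -0.01 (SE 0.04, edgeR adjusted p = 0.85). In G2M over G1 cells Rpl22l1 rose by 0.27 (SE 0.03, edgeR adjusted p = 5.0e-10), with 2074 and 1994 CPM in the G2M cells of the Helios-deficient mice and 2106 and 1976 CPM in those of the wild-type mice, against 1877, 1751, 1727 and 1677 CPM in the G1 cells of the same mice in that order. Each G2M value was above every G1 value, and Rpl22 changed by -0.10 (SE 0.04, edgeR adjusted p = 0.015) there, a call that ended against the member total, in DESeq2 and without Helios-deficient mouse 2 or either wild-type mouse. Rpl36al, an autosomal paralog of the X-linked Rpl36a, rose by 0.36 (SE 0.05, edgeR adjusted p = 1.7e-09) in myeloid-primed-like cells, a call that ended with clusters at a doubled resolution. Rpl36a changed by -0.12 (SE 0.03, edgeR adjusted p = 2.0e-04) there, a call that ended against the member total and without a count filter. Rpl7l1, a paralog of Rpl7, changed by 0.24 (SE 0.08, edgeR adjusted p = 0.010) there, a call that ended with library totals, with totals of other genes, with thinned cells, with clusters at a doubled resolution, without clusters led by B cell or hemoglobin genes and in DESeq2. Rpl7 was called higher as well, at 0.07 (SE 0.03, edgeR adjusted p = 0.026). Rps19bp1 rose in S cells by 0.35 (SE 0.07, edgeR adjusted p = 1.6e-05).

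**Figure D3:**
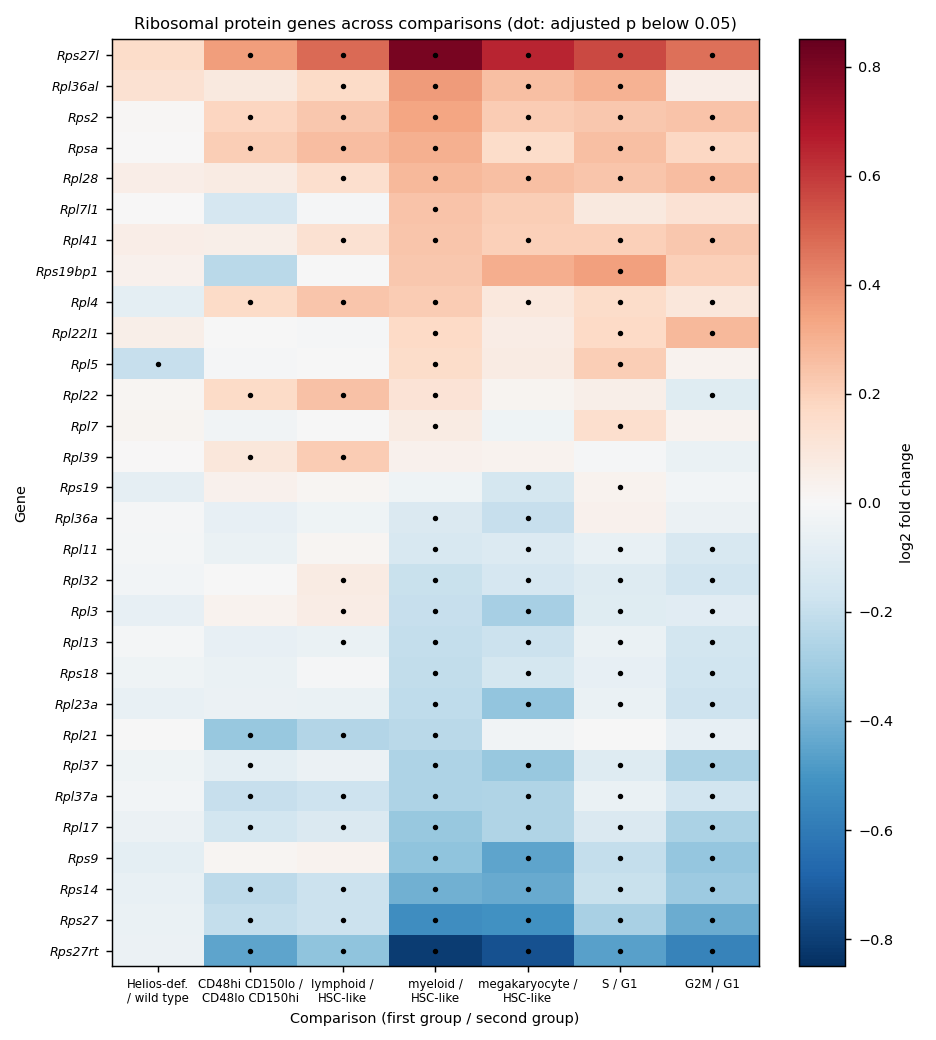
Log2 fold changes (color) of 30 named members (rows) in the genotype comparison and the 6 state contrasts (columns, first group over second), with a dot where the edgeR adjusted p was below 0.05. Rps27l, Rps2 and Rpsa are red and Rps27, Rps27rt and Rps14 blue in each state contrast, and the genotype column holds a single dot, at Rpl5.

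By role, the stalk genes Rplp0, Rplp1, Rplp2 and Rpl12, whose proteins recruit elongation factors, were called higher in 4 of 4 cases in S over G1 cells. That direction depended on the scaling, with 0 higher and 2 lower under library totals, 0 higher and 3 lower against the other genes and 3 higher and 0 lower against the member total. In megakaryocyte-primed-like over HSC-like cells the stalk gave 0 higher and 2 lower (all genes, 21.1% and 21.1%), and 2 higher and 1 lower against the member total. Of all 82 members, 45 were lower in that contrast with the main scaling. Of the 20 genes mutated in human Diamond-Blackfan anemia, 9 were higher and 4 lower in S cells, against 2 higher and 11 lower with library totals. In G2M cells 2 were higher and 8 lower (all genes, 21.1% and 20.8%), against 6 higher and 5 lower with the member total. In myeloid-primed-like cells 6 were higher and 6 lower (all genes, 26.4% and 25.4%), with a median log2 fold change of -0.01 beside -0.02 for all members. Large and small subunit genes had 17 of 49 and 17 of 33 called higher in S, and 13 and 7 lower. Of all tested genes, 26.6% were called higher and 25.8% lower in that contrast.

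Genes of translation outside the ribosome were read beside the members. Of 23 translation factors and other messages with a pyrimidine start, 9 were higher and 5 lower in S cells, with 8 higher and 13 lower under library totals. In myeloid-primed-like cells 8 were higher and 8 lower. The elongation factor gene Eef2 fell in myeloid-primed-like cells, at -0.53 (SE 0.03, edgeR adjusted p = 2.9e-24), and Eif3e, of an initiation factor, in S cells, at -0.40 (SE 0.03, edgeR adjusted p = 1.8e-26). Npm1, the gene of a nucleolar ribosome assembly protein, rose in S cells, at 0.43 (SE 0.02, edgeR adjusted p = 1.1e-40), as did the histone chaperone gene Nap1l1, at 1.12 (SE 0.04, edgeR adjusted p = 4.6e-60). Among 77 mitochondrial ribosomal protein genes, 62 were higher and 2 lower in S cells, 46 were higher and 1 lower in G2M cells and 57 were higher and 1 lower in myeloid-primed-like cells. Their median log2 fold changes were 0.37, 0.29 and 0.47 in the same order. Against the genes other than the members, the scaling that lowered these counts most, the splits were 45 higher and 6 lower, 31 higher and 3 lower and 52 higher and 1 lower. In S cells Mrpl18 rose by 1.18 (SE 0.04, edgeR adjusted p = 1.3e-54) and Mrpl12 by 0.87 (SE 0.04, edgeR adjusted p = 1.5e-41). Of all tested genes, 26.6% were called higher and 25.8% lower in S, 21.1% and 20.8% in G2M, and 26.4% and 25.4% in myeloid-primed-like cells. The difference between the cytosolic and the mitochondrial family was not tested.

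Between genotypes 1 of 82 members was called, Rpl5, against 0.794% of all 11592 tested genes. Rpl5 (ENSMUSG00000058558, chromosome 5) had 1349 and 1289 CPM in the Helios-deficient mice, against 1506 and 1520.3 CPM in the wild-type mice. The genotypes did not overlap, and the mean was 1319 ± 42.9 CPM in Helios-deficient and 1513 ± 10.2 CPM in wild-type mice (SD, n = 2 each). The log2 fold change was -0.20 (SE 0.044, edgeR adjusted p = 0.0369). Its partner in the 5S particle, Rpl11, had 3728 and 3759 CPM in the Helios-deficient mice, against 3765 and 3819.8 CPM in the wild-type mice, which also do not overlap but differ by -0.02 (SE 0.03, edgeR adjusted p = 0.91). Mice of the genotypes did not overlap in 33 of 82 members, against 41.1% of all tested genes. The median log2 fold change of the members was -0.003, and that of all tested genes -3.3e-04.

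The Rpl5 call sat near the threshold. It held under each of 4 scalings (adjusted p from 0.0225 to 0.0471), without Helios-deficient mouse 1 (0.00128), without a count filter (9.2e-04), with cells thinned to equal UMIs (0.00683) and in G1 cells alone (0.0116), all in edgeR. It ended in DESeq2 (adjusted p = 0.325), without edgeR's robust option (0.0909), with each cluster sampled to equal cells in all mice (0.0654), without the clusters led by B cell or hemoglobin genes (0.0575) and without Helios-deficient mouse 2 (0.0642), wild-type mouse 1 (0.0832) or wild-type mouse 2 (0.179). It also ended in S cells alone (0.105) and in G2M cells alone (0.722), all of these but DESeq2 in edgeR. In these 16 alternatives the log2 fold change ran from -0.24 to -0.15.

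Rpl5 was lower in Helios-deficient mice in each state as well. In G1 cells it had 1292 and 1231 CPM in Helios-deficient mice, against 1476 and 1474 CPM in wild-type mice. In S cells it had 1409.8 and 1361 CPM in Helios-deficient mice, against 1574 and 1595 CPM in wild-type mice, and in G2M cells 1299.8 and 1236 CPM in Helios-deficient mice, against 1398 and 1432 CPM in wild-type mice. Each phase kept the order of the genotypes. HSC-like cells had 1323 and 1237 CPM in Helios-deficient mice, against 1501 and 1527 CPM in wild-type mice, and myeloid-primed-like cells 1391 and 1356 CPM in Helios-deficient mice, against 1582 and 1603 CPM in wild-type mice. Lymphoid-primed-like cells had 1377 and 1251 CPM in Helios-deficient mice, against 1437 and 1466 CPM in wild-type mice, and CD48-low CD150-high cells 1233 and 1327 CPM in Helios-deficient mice, against 1645 and 1588 CPM in wild-type mice. Over 10 clusters and classes, 4 gates and 3 phases, both Helios-deficient mice lay below both wild-type mice in all 17 states, which holds for 3 of all tested genes (0.0259%); another of these is Gm47283, named after its values were seen. These states divide the same 4 mice and are no replicates, and counting noise is larger for genes with fewer UMIs. Within a class the test passed in none of 4 classes, with log2 fold changes of -0.27 in HSC-like (edgeR adjusted p = 0.069), -0.23 in cluster 3, which stayed unnamed (0.14), -0.20 in myeloid-primed-like (0.10) and -0.12 in lymphoid-primed-like cells (0.35). It passed in myeloid-primed-like cells with library totals (edgeR adjusted p = 0.0477) and without Helios-deficient mouse 1 (0.0351), and in lymphoid-primed-like cells without that mouse (0.0225). The difference of the genotype effect between lymphoid-primed-like and HSC-like cells was 0.16 (SE 0.07, adjusted p = 0.57).

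**Figure D4:**
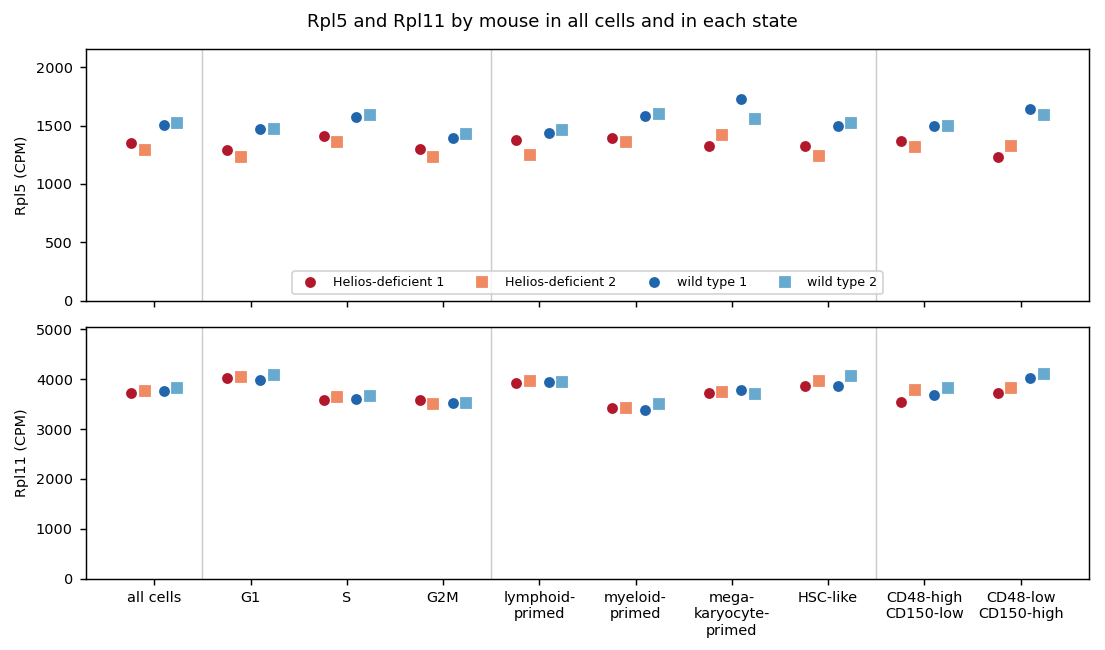
CPM (vertical axes, from 0) of Rpl5 and Rpl11 in each mouse, in all cells and in 9 states, with the Helios-deficient mice left of the wild-type mice. Both red Rpl5 points lie below both blue ones in every state drawn, and those of Rpl11 are mixed in most.

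Rpl5 itself varied with state. In S over G1 cells it rose by 0.21 (SE 0.02, edgeR adjusted p = 2.0e-15), and Rpl11 changed by -0.06 (SE 0.02, edgeR adjusted p = 2.7e-04). The Rpl11 call did not hold under every alternative. In G2M over G1 cells Rpl5 changed by 0.03 (SE 0.04, edgeR adjusted p = 0.51). Over the gates it changed by -0.01 (SE 0.04, edgeR adjusted p = 0.89). In myeloid-primed-like over HSC-like cells Rpl5 rose by 0.15 (SE 0.04, edgeR adjusted p = 1.4e-04). That call did not hold under all scalings, and its sign changed with clusters at a doubled resolution. In lymphoid-primed-like over HSC-like cells Rpl5 changed by -3.2e-04 (SE 0.04, edgeR adjusted p = 0.998). By the score, more cells of the Helios-deficient mice were called S or G2M: 38.4% and 35.6% of their cells were called S, against 32.4% and 33.9% in the wild-type mice, and 12.0% and 13.8% in G2M, against 8.51% and 8.97% in the wild-type mice. The median depths were 8670 and 8461 UMIs per cell in Helios-deficient mice, with 7599 and 7627 in wild-type mice. After thinning to 5000 UMIs per cell, which left out 43 and 52 cells of Helios-deficient mice and 129 and 108 of wild-type mice, cells called S made up 38.7% and 34.8% in Helios-deficient mice, with 34.4% and 35.0% in wild-type mice, so that the S shares overlapped. Cells called G2M made up 14.8% and 17.1% in Helios-deficient mice, with 10.7% and 13.3% in wild-type mice, without overlap. Cluster 6, led by the mitotic genes Cenpf, Plk1 and Ccnb1, held 5.57% and 7.16% in Helios-deficient mice, with 5.11% and 4.92% in wild-type mice, of all kept cells. The difference between genotypes in these shares was not tested, and phase calls alone do not show cycling. The part of these shares in the genotype values was not tested beyond the within-phase values above.

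Counting Rpl5, 8 members had an unadjusted edgeR p under 0.05 between genotypes, 6 lower and 2 higher in Helios-deficient mice; 10.4% of all tested genes reached that unadjusted p. Rps19, the gene most often mutated in Diamond-Blackfan anemia, had 7562 and 7652 CPM in the Helios-deficient mice, against 7953 and 8059.8 CPM in the wild-type mice, a difference of -0.07 (SE 0.03, edgeR adjusted p = 0.29). Rps27l had 735 and 681 CPM in the Helios-deficient mice, against 611 and 660.3 CPM in the wild-type mice, at 0.16 (SE 0.06, edgeR adjusted p = 0.31), and Rpl36al 575 and 547 CPM in the Helios-deficient mice, against 503 and 522 CPM in the wild-type mice, at 0.13 (SE 0.06, edgeR adjusted p = 0.41). The genotypes did not overlap in any of these. The remaining members of the 8, all lower, were Rpl4 (-0.08), Rps9 (-0.08), Rpl3 (-0.07) and Rps14 (-0.06). Within lymphoid-primed-like cells Rps27l was called, with 730.5 and 699.8 CPM in Helios-deficient mice, against 596 and 624 CPM in wild-type mice. The log2 fold change was 0.26 (SE 0.07, edgeR adjusted p = 0.024), where 2.95% of all genes were called. The call ended with library totals (0.060), with totals of other genes (0.079), with the member total (0.051) and without either wild-type mouse (0.66 without mouse 1 and 0.31 without mouse 2). No member was called in HSC-like, myeloid-primed-like or cluster 3 cells by edgeR, where the adjusted p called 0.352%, 0.477% and 0.292% of all genes. There 4, 2 and 2 members had an unadjusted p under 0.05, as did 6.81%, 6.99% and 5.62% of all genes. In the tests of a difference between classes no member was called for lymphoid- or myeloid-primed-like against HSC-like cells, where the adjusted p called 0.214% and 0.104% of all genes. At an unadjusted p under 0.05 there were 8 and 7 members, beside 7.42% and 5.96% of all genes.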

How the data were processed

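The 10x Genomics droplet data hold 1 run of hashtagged LSK cells from 4 mice. The deposited matrices give raw UMI counts per gene, antibody tag and hashtag for each barcode, made by the authors with Cell Ranger on mm10, per the submitters' processing notes. The matrix headers name software version 3.0.2, and the notes name Seurat 3.0.0. The authors' deposited hashtag table assigns 4108 barcodes: 3842 to a single mouse, 231 as doublets and 35 as negative. Their deposited list of kept barcodes has 3470 entries, all single-mouse, and 372 single-mouse barcodes are not in it. Doublets within a mouse were not searched for, and the criteria of the authors' cell filter are not given in the sources used here.

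Clusters came from scanpy 1.11.5 (1500 variable genes, Pearson residuals with theta 100, 30 components, 20 neighbours, Leiden resolution 0.5), without ribosomal protein, translation, cell cycle and sex-linked genes. A cluster was named from at least 3 fixed markers. Phases came from scores of S and G2M gene lists. Gates joined the lowest and highest of 3 equal parts of the CD48 and CD150 tags after a centred log-ratio. Each tag was centred over all kept cells, which keeps the order of the raw tag counts. The tag total of a cell was not corrected for. UMI counts were summed per mouse, or per mouse and state, and tested in edgeR 4.0.16 (robust quasi-likelihood test, TMM, filterByExpr, Benjamini-Hochberg adjustment over all genes, threshold 0.05). State contrasts kept the mouse as a block. Classes were tested between genotypes with at least 50 cells in every mouse. DESeq2 1.42.0 was an alternative. On simulated counts for the genotype comparison, edgeR called 89 of 100 genes changed by 1.5-fold and 100 of 100 changed by 2.0-fold, with 2 calls among 11392 unchanged genes. These counts came from a negative binomial model with a trended dispersion and 1 mean per gene. Changed genes lay above 10 CPM. No mouse that stands apart was simulated, so these counts do not measure false calls in the real data. Named members were Rpl5, Rpl11, paralogs and their partners, the 5 most and 5 least abundant, and in each main comparison the 10 with the smallest p and the 5 largest rises and falls. Members, lists and rules were chosen with earlier results of these data known. Chosen after seeing the data were the member-total scaling, single phases, DESeq2 for phases, the scaling by other genes within classes, HSC-like cells without B cell or hemoglobin clusters, phase scores on thinned cells, and the alternatives for shares per state. Counts of near-identical gene copies are uncertain. A few of the genes this rule names are not reported here.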

Additional observations from a re-analysis of the deposited data

Results flagged for a closer look

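Genes with pseudogene names were left out of the ribosomal protein list, and 5 of them nevertheless carried UMIs in at least 1000 kept cells. Summed over the 3470 kept cells, Rpl10-ps3 had 9135 UMIs, Rpl27-ps3 had 6151, Rpl36a-ps1 had 3835, Rpl9-ps6 had 3510 and Rps12-ps3 had 1415. They were detected in 3086, 2648, 2205, 2070 and 1096 of these cells in that order. These rows lie outside the comparisons. Of 9 symbols with -ps among the ribosomal protein genes, 7 had a UMI in at least 10 kept cells, with 25219 UMIs in all. How the UMIs of such copies and of their parent genes were divided was not tested.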

How the results depend on the processing

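Counts are given as members higher and lower. Between genotypes, 0 higher and 1 lower became 0 lower in DESeq2 (Rpl5 log2 fold change -0.20), without the robust option (-0.20), with each cluster sampled to equal cells in all mice (-0.22), without clusters led by B cell or hemoglobin genes (-0.18), in S cells only (-0.19) and in G2M cells only (-0.15). Within lymphoid-primed-like cells, 1 and 0 became 0 and 3 with library totals or the member total, and 0 higher with totals of other genes; within myeloid-primed-like cells, library totals gave 1 lower, Rpl5. With library totals the gates gave 32 lower, myeloid-primed-like cells 13 higher, S 17 and 49, and G2M 54 lower. With totals of the other genes the gates gave 7 and 32, lymphoid-primed-like cells 19 higher, myeloid-primed-like cells 9 and 56, S 12 and 59, and G2M 5 and 62, with Rpl5 changed by -0.084 on the log2 scale. With the member total lymphoid-primed-like cells gave 18 lower, megakaryocyte-primed-like cells 34 and 21 with Rpl11 at 0.0052, myeloid-primed-like cells 39 higher and G2M 29 higher. With no count filter the gates gave 24 and 9, lymphoid-primed-like cells 5 lower and myeloid-primed-like cells 37 higher. With cells thinned to equal UMIs the gates gave 5 and 22 and a share difference of -1.18 percentage points, lymphoid-primed-like cells 18 lower, megakaryocyte-primed-like cells 7 higher, myeloid-primed-like cells 9 and 54, and G2M 10 higher. DESeq2 gave 6 and 8 in the gates and 18 and 6 in lymphoid-primed-like cells, and narrower tag gates, the outer of 4 equal parts of each tag, 4 higher in the gates. With doubled cluster resolution lymphoid-primed-like cells gave 6 and 29 and a share difference of -1.62, megakaryocyte-primed-like cells 4 higher and -3.99, and myeloid-primed-like cells 7 higher with Rpl5 at -0.0093. The cause of these shifts was not tested.

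Leaving out 1 mouse in turn, the genotype comparison gave 0 to 1 higher and 0 to 1 lower with Rpl5 at -0.23 to -0.16, lymphoid-primed-like cells 0 to 3 in either direction between genotypes, and myeloid-primed-like cells 0 to 1 lower. State contrasts gave 7 to 14 and 9 to 17 in the gates, 21 to 29 and 7 to 8 in lymphoid-primed-like, 11 to 13 and 42 to 45 in megakaryocyte-primed-like and 19 to 23 and 29 to 31 in myeloid-primed-like cells, 29 to 34 and 19 in S, and 16 to 17 and 24 to 38 in G2M. The share differed between genotypes by -0.64 to -0.05 percentage points, between S and G1 by -1.79 to -1.68, between G2M and G1 by -2.81 to -2.51, and between the gates by -0.98 to -0.72. Against HSC-like cells it differed by -0.30 to 0.38 in lymphoid-primed-like, -3.26 to -2.66 in myeloid-primed-like and -2.03 to -1.41 in megakaryocyte-primed-like cells. Of 1455 values of single named members under alternatives, 1395 kept direction and side of the threshold, 35 lost and 22 gained a call, and 3 changed sign, as given. No paired analysis was possible between genotypes because each mouse has 1 genotype and the hashtag numbers pair no mice; state contrasts keep the mouse as a block. The simulation tried changes of 1.5-fold and 2.0-fold; smaller ones were not simulated.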

Other observations

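Single-mouse barcodes that the authors did not keep numbered 68 and 132 in Helios-deficient mice, with 87 and 85 in wild-type mice. Ribosomal protein genes made up 27.1% and 28.0% of their UMIs in Helios-deficient mice, with 26.5% and 29.8% in wild-type mice, below the share in the kept cells of every mouse. Mitochondrially encoded genes made up 4.94% and 5.04% in Helios-deficient mice, with 5.89% and 4.01% in wild-type mice, against 2.45%, 2.48%, 2.44% and 2.51% in the kept cells of the same mice in that order. These barcodes enter no comparison.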
